A study of Mus musculus with 8 samples.

Results

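The genes described here encode the proteins of the cytosolic ribosome. They were taken from the count table as the protein-coding rows whose names consist of Rpl, Rps or Rplp, a number and at most the letters a, x, l or y, which gave 80 of the 55450 genes, 50 with large subunit names and 30 with small subunit names. Ribosomal proteins named in another way (Rpsa, Rack1, Rps3a1, Fau and others) fall outside this rule and are given separately. Of the 80 members, 76 passed the filter on low counts, 46 large and 30 small, and 74 of these had a mean of at least 5 CPM, the read count scaled to library size. The untested members were Rpl10l, listed with 0 counts in every library, and Rpl36al, Rpl39l and Rpl3l.

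RNA depleted of ribosomal RNA was sequenced from sorted mouse neutrophils, with 8 libraries in 4 groups of 2. Cells of 2 origins were each sorted into a fraction labelled CD71- and one labelled CD71+: neutrophils generated in vitro from naive bone marrow (culture), and neutrophils from brain tumours of SB28, a mouse glioma line (tumour). CD71 is the transferrin receptor, which takes up iron-loaded transferrin. No genotype, treatment, time point or animal age is given in the labels, and the labels do not say whether the libraries of a group are of different mice or cultures. The p-values then reflect the spread among these libraries alone, and it may be technical. Culture and tumour differ in tissue, setting and how the cells were made, and these cannot be told apart.

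Each cytosolic ribosome joins a small subunit, which reads the mRNA, to a large subunit, which forms the peptide bond, and nearly every ribosomal protein is present once per ribosome. Their mRNAs are short and abundant, and most start with a run of pyrimidines, the terminal oligopyrimidine motif, through which mTORC1 and the RNA-binding protein Larp1 control their translation. Neutrophils make most of their ribosomes as early precursors in the bone marrow and hold less RNA once mature.

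Total counts ran from 9598959 to 22615813 per library, and a gene with 0 counts allows up to 3 counts, which is 0.0915 to 0.419 CPM depending on the library and covers counting error only. Libraries labelled CD71+ did not hold more mRNA of the sort marker in the tumour: Tfrc was at 187 and 145 CPM in tumour CD71- and at 103 and 108 CPM in tumour CD71+, and at 131 and 94.3 CPM in culture CD71- against 116 and 115 CPM in culture CD71+. The fractions are therefore named by their labels throughout. Neutrophil genes were detected in every library (Csf3r, the receptor of the granulocyte growth factor, at 311 to 5779.5 CPM, and S100a8, a cytosolic granulocyte protein, at 336 to 1564 CPM), while Ly6g, a mouse neutrophil surface marker, was at 6.06 to 14.1 CPM in the tumour libraries and 16.3 to 78.2 CPM in the culture libraries. Mitochondrially encoded genes took 7.09% and 12.002% of counts in culture CD71-, 1.45% and 2.17% in culture CD71+, and 0.202% to 1.04% in the tumour.

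Ribosomal protein genes were at their lowest in tumour CD71- neutrophils and at their highest in culture CD71+ neutrophils. The 80 genes together took 0.197% and 0.202% of counts in tumour CD71-, 0.628% and 0.631% in tumour CD71+, 0.576% and 1.01% in culture CD71-, and 1.54% and 1.25% in culture CD71+. On library sizes scaled by edgeR's TMM factors, which all CPM values here use, their summed level was 3268 and 3124 CPM in tumour CD71-, 7072 and 6619 CPM in tumour CD71+, 4709.7 and 8827 CPM in culture CD71-, and 10641 and 8354 CPM in culture CD71+. On these scaled sums the tumour groups did not overlap. The culture groups did, since the second culture CD71- library lay above the lower culture CD71+ library. By share of counts neither the tumour groups nor the culture groups overlapped. Among the 74 members with at least 5 CPM, 68 had their lowest group mean in tumour CD71- and 65 their highest in culture CD71+. In bulk samples, fewer cells that express these genes and less of their RNA per cell cannot be told apart.

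Large and small subunit genes had similar medians. The summed CPM of large subunit genes was 1.35 to 1.502 times that of small subunit genes in the 8 libraries. This ratio was 1.38 ± 0.0443 (SD, n = 2) in tumour CD71- and 1.49 ± 0.0118 (SD, n = 2) in tumour CD71+. In the tumour comparison the median log2 fold change was 1.26 over the 46 large subunit genes and 1.15 over the 30 small subunit genes.

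**Figure D1:**
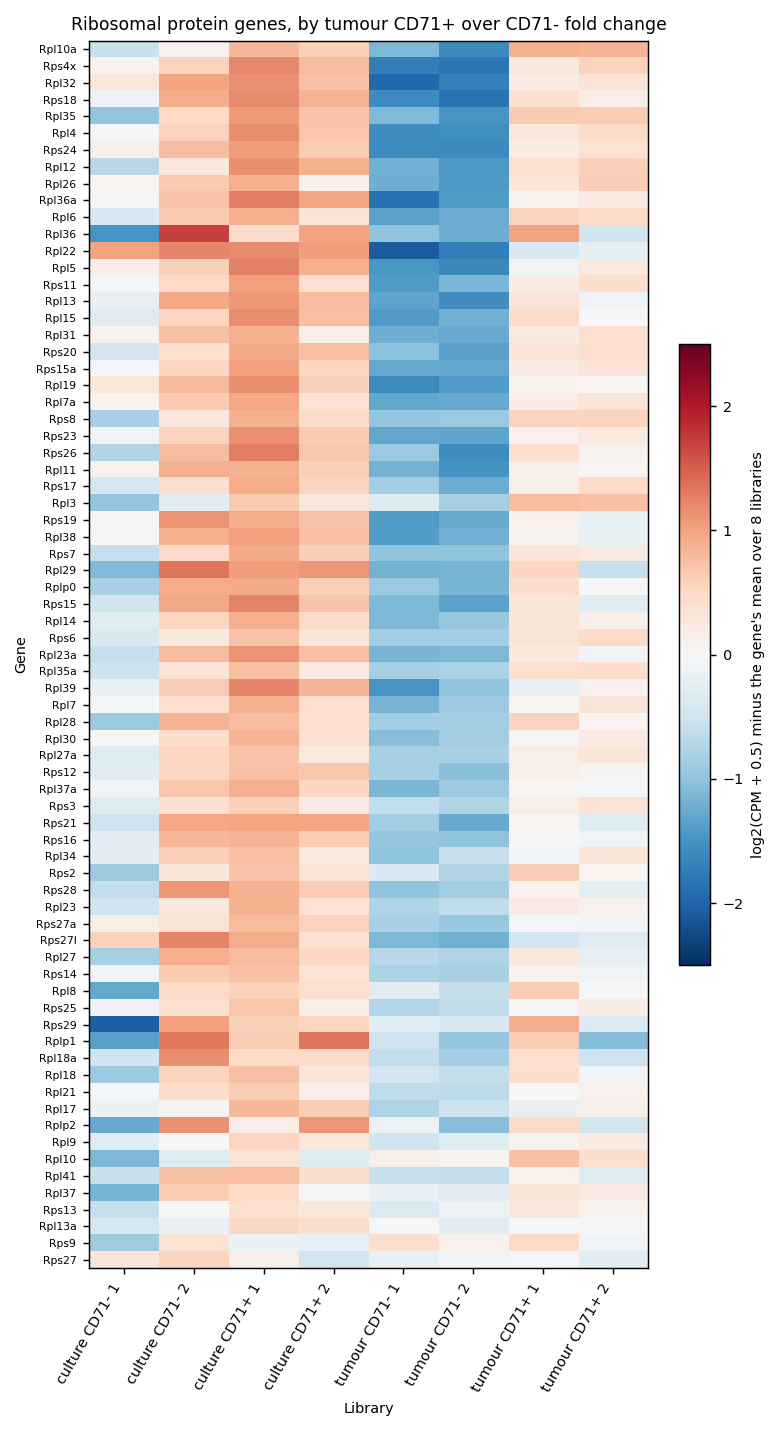
Each row is a tested ribosomal protein gene with a mean of at least 5 CPM (1 gene is not shown) and each column 1 of the 8 libraries, with rows ordered by the tumour CD71+ over CD71- log2 fold change. Colour is log2(CPM + 0.5) minus the gene's mean over the libraries. Both tumour CD71- columns are low for nearly all rows, both culture CD71+ columns are high, and Rps27 and Rps9 in the last rows show no such pattern.

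The first comparison asked how CD71+ and CD71- neutrophils of the tumour differ. In tumour CD71+ neutrophils 51 of the 76 tested members were higher (adjusted p under 0.05) and 0 were lower, against 26.2% higher and 17.3% lower among all 15975 genes tested. At an unadjusted p under 0.05, 55 were higher and again 0 were lower, and DESeq2 found 49 higher. The median log2 fold change of the members was 1.25, a 2.38-fold difference, with an SD of 0.52 between genes, against a median of 0.13 over all tested genes (SD 1.497). Estimates were positive for 74 of the 76, and 68 members had both CD71+ libraries above both CD71- libraries, against 40.1% of all tested genes. Of the 51 members that rose, 42 also passed with DESeq2 size factors. With TMM scaling 41 of the 51 rose at least 2-fold and 4 at least 4-fold. The count was 32 without either tumour CD71- replicate 1 or replicate 2.

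The largest rises were in Rpl10a, Rps4x and Rpl32. Rpl10a, a large subunit protein that forms the mobile stalk where spent tRNAs leave, was at 16.1 and 11.5 CPM in tumour CD71- and at 66.5 and 64.6 CPM in tumour CD71+. Its log2 fold change was 2.25 ± 0.25 (SE, adjusted p = 2.4e-05). Rps4x, a small subunit protein encoded on the X chromosome, was at 32.4 and 30.5 CPM in tumour CD71- and at 132 and 162 CPM in tumour CD71+, a log2 fold change of 2.23 ± 0.22 (adjusted p = 8.1e-06). Rpl32 was at 10.2 and 12.3 CPM against 46.6 and 51.7 CPM, a log2 fold change of 2.12 ± 0.26 (adjusted p = 5.3e-05). In these 3 genes the lower CD71+ library was well above the higher CD71- library, so the groups lay far apart.

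A few members did not share the rise. Rps27 was at 74.6 and 81.3 CPM in tumour CD71- and 83.0 and 69.8 CPM in tumour CD71+, with a log2 fold change of -0.03 ± 0.21. This estimate turned to 0.53 when libraries were scaled to total counts and to 0.98 when they were scaled on mature neutrophil genes. Rps9 was at 224 and 184 CPM against 239 and 162 CPM, with a log2 fold change of -0.03 ± 0.35. Rpl13a, known for a role in interferon-dependent translational silencing outside the ribosome, was at 8.52 and 7.07 CPM against 8.37 and 8.47 CPM. Its log2 fold change was 0.11 ± 0.28. In all 3 genes the CD71+ and CD71- values overlapped. Of the 25 members that did not pass, 8 had a log2 fold change within 0.5 of 0 and 5 had one above 1, and the median SE was 0.49 for those that did not pass and 0.25 for those that did.

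**Figure D2:**
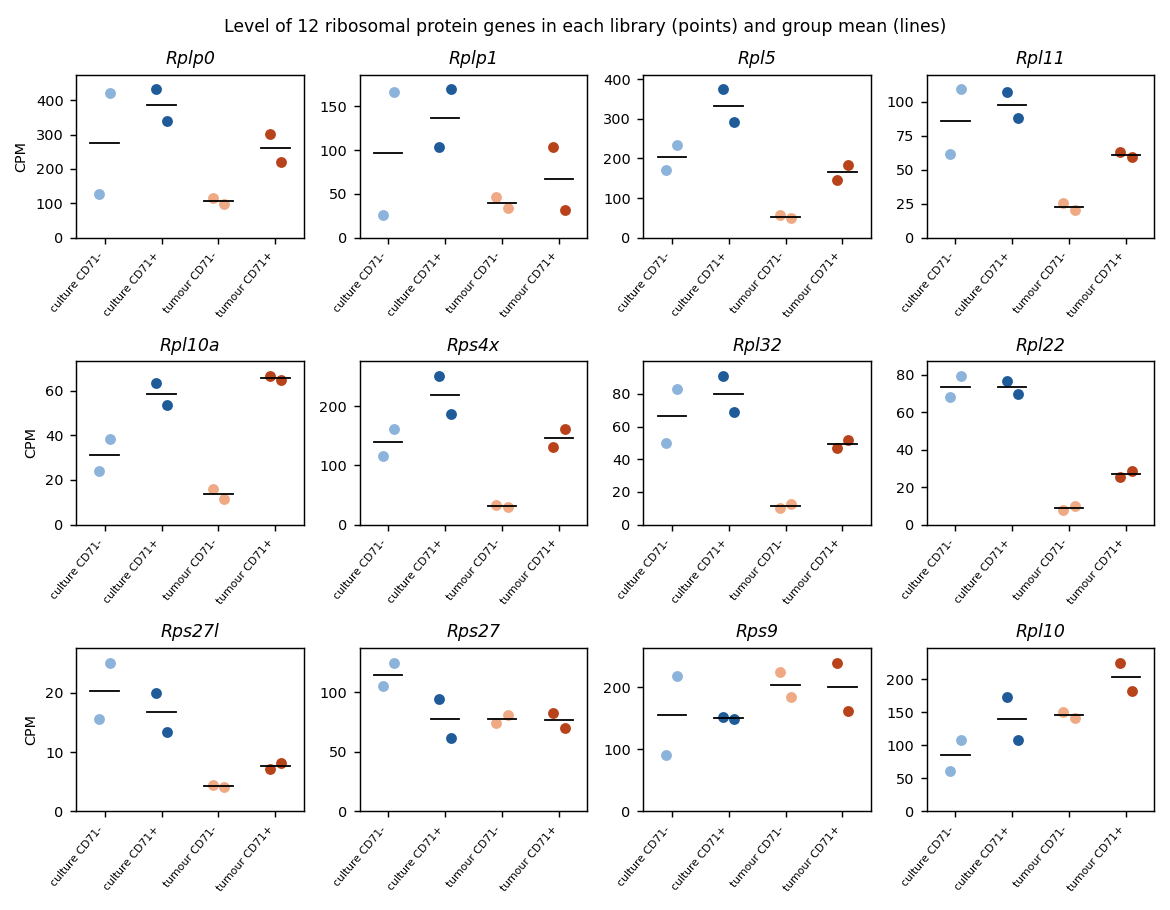
Each panel gives 1 ribosomal protein gene, with CPM on the vertical axis from 0, a point for each of the 2 libraries of a group and a line at the group mean. Rpl10a, Rps4x, Rpl32, Rpl22 and Rpl5 are lowest in tumour CD71- with close replicates, Rplp0 and Rplp1 have replicates far apart, and Rps27, Rps9 and Rpl10 are not lowest there by a clear gap.

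The promoters were compared. A promoter window in RefSeq (build GRCm38.p6, 250 bases before the start and 50 from it) was found for 60 of the 80 members. The motif CTTTCC, pyrimidine-rich like the start of these genes, was looked for on both strands, as was CCGGAAG, the ETS-type site bound by GABP. The 2 motifs can share bases, and matches that did so were found in 0 of the 60 members and in 22 of all genes with a window. CTTTCC was present in 53.3% of the 60 members and in 29.3% of all 27025 genes with a window, and within 15 bases of the start in 16.7% and 3.14%. CCGGAAG was present in 40.0% of members and 9.93% of all genes. Over the whole window, tested members with and without CTTTCC had median tumour log2 fold changes of 1.28 and 1.23. For CCGGAAG the medians were 1.27 and 1.25. Within 15 bases of the start they were 1.21 with CTTTCC (9 genes) and 1.28 without (47 genes). For CCGGAAG there they were 1.42 with (5 genes) and 1.23 without (51 genes). The sequences that follow hold 130 bases before and 20 from the start for 3 members with large changes (Rpl10a, Rps4x, Rpl22) and 3 that did not pass in the tumour (Rps27, Rps9, Rpl10), with either motif in capitals. Positions are chr17:28328341-28328490 on the plus strand for Rpl10a, chrX:102189372-102189521 minus for Rps4x, chr4:152325596-152325745 plus for Rpl22, chr3:90213629-90213778 minus for Rps27, chr7:3703911-3704060 plus for Rps9 and chrX:74270686-74270835 plus for Rpl10.
Rpl10a: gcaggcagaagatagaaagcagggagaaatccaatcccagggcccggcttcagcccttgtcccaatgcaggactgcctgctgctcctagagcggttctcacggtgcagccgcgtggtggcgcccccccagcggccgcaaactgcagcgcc
Rps4x: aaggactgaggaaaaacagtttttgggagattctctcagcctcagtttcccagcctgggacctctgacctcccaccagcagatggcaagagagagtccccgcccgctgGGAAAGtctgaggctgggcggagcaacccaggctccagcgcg
Rpl22: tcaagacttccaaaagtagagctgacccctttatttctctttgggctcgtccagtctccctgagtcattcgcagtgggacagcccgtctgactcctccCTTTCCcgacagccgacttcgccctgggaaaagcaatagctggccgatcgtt
Rps27: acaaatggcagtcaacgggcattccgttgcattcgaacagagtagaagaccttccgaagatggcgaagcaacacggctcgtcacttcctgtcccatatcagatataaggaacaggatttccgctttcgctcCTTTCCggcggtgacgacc
Rps9: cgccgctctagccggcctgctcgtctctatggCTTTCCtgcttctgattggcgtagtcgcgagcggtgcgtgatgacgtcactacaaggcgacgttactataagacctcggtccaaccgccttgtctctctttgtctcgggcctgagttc
Rpl10: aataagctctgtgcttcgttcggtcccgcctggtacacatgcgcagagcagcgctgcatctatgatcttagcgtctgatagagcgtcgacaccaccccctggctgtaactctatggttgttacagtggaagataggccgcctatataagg
CTTTCC lies within 15 bases of the start in Rps27, and further upstream, on either strand, in Rps4x, Rpl22 and Rps9, while neither motif is in these letters of Rpl10a and Rpl10. A match is a description of letters, and it was found in members of both kinds. Rpl10a and Rpl22 have 2 windows each, and only the one nearest the start of the gene model is shown. Starts are as annotated and were not checked in these cells.

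Among members with a known special role, the 2 that bind 5S ribosomal RNA both rose in tumour CD71+, as did 51 of the 76 tested members. Rpl5 and Rpl11 form a particle with 5S RNA that, when ribosome assembly fails, binds Mdm2 and stabilises p53. Rpl5 was at 56.4 and 50.3 CPM in tumour CD71- and at 145 and 185 CPM in tumour CD71+ (log2 fold change 1.63 ± 0.21, adjusted p = 7.4e-05). Rpl11 was at 25.3 and 20.2 CPM against 62.8 and 59.4 CPM (1.42 ± 0.25, adjusted p = 0.00068). Of the 12 genes listed for this p53 surveillance, 3 rose and 4 fell, against 26.2% higher and 17.3% lower among all tested genes. The share that rose was near that of all genes, and the share that fell was above it. The p53 targets on the list went both ways: Sesn1 and Zmat3 rose by log2 fold changes of 1.58 and 1.56. Sesn2, Gadd45a, Mdm2 and Cdkn1a fell by 1.22, 1.12, 0.67 and 0.65 on the log2 scale. In culture 0 of the 12 listed genes were higher in CD71+ and 5 were lower, against 7.88% and 8.36% of all tested genes.

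The stalk of the large subunit, which recruits elongation factors, is built from Rplp0, Rplp1 and Rplp2, and no stalk gene passed in the tumour. Rplp0 was at 116 and 98.8 CPM in tumour CD71- and 300.2 and 221 CPM in tumour CD71+, with no overlap, a log2 fold change of 1.28 ± 0.50 and an adjusted p of 0.079. With the 4 tumour libraries fitted alone, its log2 fold change was 1.28 and its adjusted p 0.00015; without culture CD71- replicate 1 the adjusted p was 0.00011, and without culture CD71- replicate 2 it was 9.0e-05. Rplp1 was at 46.1 and 33.5 CPM against 103 and 31.2 CPM, and Rplp2 at 33.2 and 17.2 CPM against 51.9 and 26.5 CPM. In both of these genes the groups overlapped, because the second tumour CD71+ library was well below the first.

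The 5 small subunit genes picked for a role in disease or signalling rose, among them Rps6 and Rps19. So did 20 of all 30 small subunit genes, against 26.2% of all tested genes. Of the small subunit genes picked as paralogues, Rps4x rose, and Rps27 and Rps27l did not pass. Rps6, the substrate of S6 kinase downstream of mTORC1, was at 72.2 and 73.0 CPM in tumour CD71- and at 166 and 185 CPM in tumour CD71+ (log2 fold change 1.27 ± 0.22, adjusted p = 0.00052). Rps19, mutated in Diamond-Blackfan anaemia, was at 21.4 and 23.6 CPM against 61.2 and 50.4 CPM (1.31 ± 0.32, adjusted p = 0.0066). Its adjusted p was 0.091 without tumour CD71- replicate 1 and 0.063 without tumour CD71- replicate 2. Rps14, whose loss marks the 5q- form of myelodysplastic syndrome, rose 1.75-fold, Rps25, needed by several viral internal ribosome entry sites, rose 1.70-fold, and Rps27a, made as a fusion with ubiquitin, rose 1.78-fold. In each of these 5 genes both CD71+ libraries were above both CD71- libraries. Rpl38, tied to the translation of homeobox mRNAs in the embryo, rose 2.44-fold, while Rpl41, the shortest ribosomal protein, had a log2 fold change of 0.48 ± 0.36 and did not pass.

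The second comparison asked the same of the cultured neutrophils. In culture CD71+ neutrophils 11 of the 76 members were higher and 0 were lower, against 7.88% higher and 8.36% lower among all tested genes. At an unadjusted p under 0.05, 28 were higher and 1 lower. The median log2 fold change was 0.51, a 1.42-fold difference, against 0.03 over all genes. Both CD71+ libraries were above both CD71- libraries in 29 of the 76 members, a share near the 33.3% of all tested genes. Rpl12, which sits beside the stalk, had the highest estimate: it was at 52.3 and 101.3 CPM in culture CD71- and at 189 and 159.5 CPM in culture CD71+ (1.19 ± 0.25, adjusted p = 0.0067). Rpl3, which reaches towards the peptidyl transferase centre, followed with 58.3 and 94.9 CPM against 183 and 142 CPM (1.09 ± 0.24, adjusted p = 0.0071). Rpl35 had the next highest estimate, 0.98 ± 0.40, and did not pass. Rpl10a, Rpl5, Rps4x and Rpl13a were also among the 11. The lowest estimates belonged to Rps27 (-0.56 ± 0.21), Rps27l (-0.27 ± 0.28) and Rpl36 (-0.08 ± 1.01), which did not pass. Of the 11 members, 10 had also risen in the tumour, the exception being Rpl13a.

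Leaving a library out can change the calls of all genes, and their shares in such fits are not given for any comparison. The culture count rests on single libraries. It was 56 higher without culture CD71- replicate 2, 3 without culture CD71- replicate 1, 0 without culture CD71+ replicate 1, with 1 lower there, and 4 without either tumour CD71- library, which enter through the shared estimate of spread. The median log2 fold change was 1.02 without culture CD71- replicate 2 and 0.11 without culture CD71- replicate 1. The 2 culture CD71- libraries stood apart for these genes: the second exceeded the first in all 74 members with at least 5 CPM, by a median of 0.82 on the log2(CPM + 0.5) scale and by 0.17 to 3.19. The median difference between replicates was -0.37 in culture CD71+, -0.03 in tumour CD71- and -0.07 in tumour CD71+.

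Replicate differences were correlated with base composition and with length. Across the 74 members, the Pearson correlation of the replicate difference with the GC content of the longest coding transcript was 0.494 in culture CD71-, 0.314 in culture CD71+, -0.254 in tumour CD71- and -0.53 in tumour CD71+. With the log2 length of the exon union it was -0.448, -0.235, 0.0336 and 0.443 in the same order. These correlations are across genes of the same pair of libraries and carry no p. Among them 5 genes, chosen after their values were seen, stood out: Rpl36, Rps29, Rplp1, Rpl29 and Rplp2 differed between the culture CD71- replicates by 3.19, 3.06, 2.68, 2.44 and 2.40 on the log2 scale. In tumour CD71+ the same genes were lower in the second library, by -1.51, -1.28, -1.71, -1.10 and -0.96. Rpl36, for example, was at 1.66 and 19.2 CPM in culture CD71- and at 11.6 and 3.76 CPM in tumour CD71+. None of the 5 passed in any of the 5 comparisons, and their largest SE was 1.25 in the tumour comparison. The part of base composition, length or RNA quality in this spread was not tested.

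**Figure D3:**
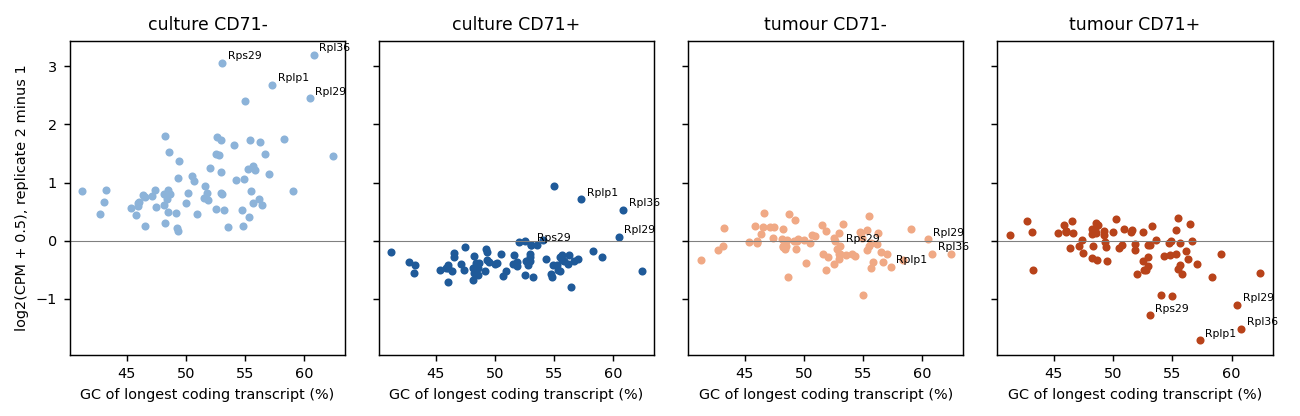
Each point is 1 of 74 ribosomal protein genes, with the GC content of its longest coding transcript in percent on the horizontal axis and the second replicate minus the first, in log2(CPM + 0.5), on the vertical axis, in a panel for each group. All points of culture CD71- lie above 0 and reach 3.19 for Rpl36, while in tumour CD71+ the same genes reach down to -1.71 for Rplp1.

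The difference between both CD71 effects was tested directly, as the tumour effect minus the culture effect. It was positive and passed for 16 members and negative for 0, against 10.8% and 4.71% of all tested genes, with a median of 0.67 against 0.18 over all genes. At an unadjusted p under 0.05 the counts were 26 and 0. Rpl32 had the largest difference, 1.86 ± 0.35 (adjusted p = 0.0038): it rose in the tumour, while in culture it was at 50.04 and 83.1 CPM in CD71- and 90.8 and 68.8 CPM in CD71+, with overlap. Rps4x (1.57 ± 0.29, adjusted p = 0.0038) and Rpl22 (1.65 ± 0.28, adjusted p = 0.0021) passed too, and these 3 genes passed under each of the 17 alternative settings run for them. Rpl26, which binds the p53 mRNA, differed by 1.66 ± 0.39 (adjusted p = 0.013). Rpl10a, Rps18, Rpl11 and Rpl5 were also among the 16. Among members with at least 5 CPM the lowest differences, -0.71 ± 0.38 for Rpl13a, -0.25 ± 0.38 for Rpl10 and -0.17 ± 0.29 for Rps13, did not pass. Rpl36 had a high estimate with a wide error, 1.82 ± 1.61. The count was 52 without culture CD71- replicate 1 and 9 without replicate 2, with 1 negative there, 4 without culture CD71+ replicate 2, 4 and 3 without tumour CD71- replicate 1 and 2, and 8 without tumour CD71+ replicate 2.

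**Figure D4:**
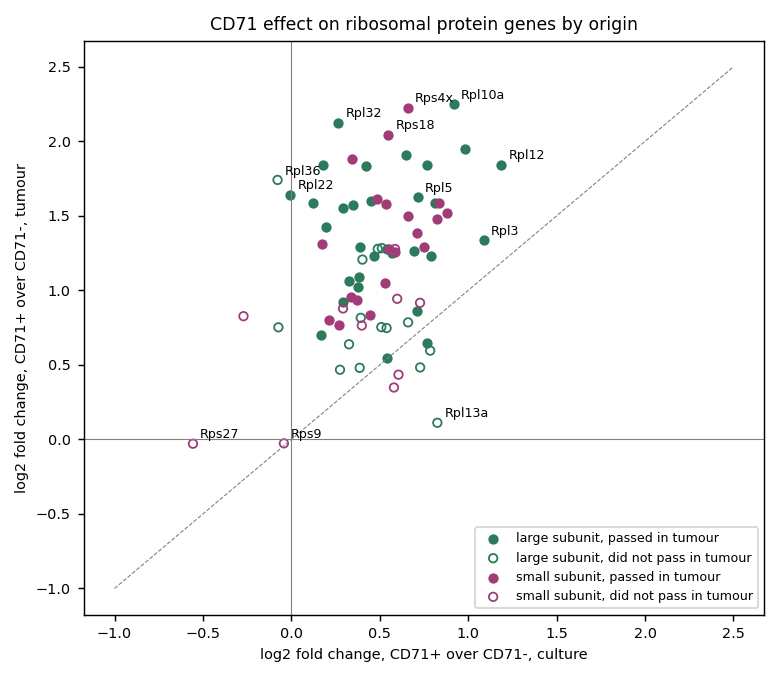
Each point is 1 of the 76 tested ribosomal protein genes, with the CD71+ over CD71- log2 fold change in culture on the horizontal axis and in the tumour on the vertical axis. Filled points passed in the tumour, colour gives the subunit and the dashed line marks equal effects. Most points lie above the dashed line, with Rpl10a highest at 2.25, and Rps27 and Rps9 lie near 0 on the vertical axis.

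The last 2 comparisons set tumour against culture within a fraction. They use the same libraries as the CD71 comparisons and so are not independent of them. Among CD71- neutrophils 55 members were lower in the tumour and 1 was higher, against 36.8% lower and 30.3% higher among all tested genes, with a median log2 fold change of -1.23 against -0.28 over all genes. No overlap with the tumour lower was found for 59 members, against 45.9% of all tested genes. Among CD71+ neutrophils 26 members were lower and 0 higher, against 27.6% lower and 30.3% higher among all tested genes, with a median of -0.52 against -0.08; at an unadjusted p under 0.05 the counts were 29 and 1, and DESeq2 size factors gave 1 higher. The share of members lower in CD71+ neutrophils, 26 of 76, lay near the share of all genes. All 26 were also lower in CD71- neutrophils. The CD71- count was 36 without tumour CD71- replicate 1, and the CD71+ count was 7 without culture CD71+ replicate 1, 14 without tumour CD71+ replicate 1, 17 without tumour CD71+ replicate 2, 16 without either tumour CD71- library and 43 without either culture CD71- library.

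Rpl22 changed most over the 4 groups, with group means spread over 3.01 on the log2 scale, followed by Rps4x (2.78) and Rpl32 (2.77). Rpl22 is a large subunit protein that binds RNA, is dispensable for translation in general and is needed for lymphocyte development. It was at 68.2 and 79.1 CPM in culture CD71-, 76.8 and 69.8 CPM in culture CD71+, 7.54 and 9.84 CPM in tumour CD71-, and 25.6 and 28.7 CPM in tumour CD71+. The culture groups overlapped, with a log2 fold change of -0.01 that became 0.95 with scaling on mature neutrophil genes, and every tumour library was below every culture library. Its log2 fold change between tumour and culture was -3.08 ± 0.21 in CD71- (adjusted p = 2.1e-08) and -1.43 ± 0.19 in CD71+ (adjusted p = 1.8e-05). Its paralogue Rpl22l1, which Rpl22 is known to repress, was at 3.55 and 2.99 CPM in culture CD71-, 9.82 and 6.74 CPM in culture CD71+, 9.08 and 10.3 CPM in tumour CD71-, and 14.9 and 7.91 CPM in tumour CD71+. In CD71- neutrophils Rpl22l1 was higher in the tumour (log2 fold change 1.55, adjusted p = 0.0020), opposite to Rpl22, and in culture it was higher in CD71+ (1.33, adjusted p = 0.020), where Rpl22 had a log2 fold change of -0.01. The tumour CD71 effect of Rpl22l1, 0.24, did not pass, while Rpl22 rose there by 1.64 on the log2 scale. Between tumour and culture CD71+ neutrophils the Rpl22l1 values overlapped and it did not pass as higher, while Rpl22 was lower.

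Rps18 was the third lowest in tumour against culture CD71-, after Rpl22 and Rpl32, at -2.25 ± 0.32 (adjusted p = 4.4e-05). Among CD71+ neutrophils Rps27l was lower in the tumour (-1.13 ± 0.30, adjusted p = 0.0049), as was Rpl22. Rps27l, the p53-induced paralogue of Rps27, was at 15.6 and 25.02 CPM in culture CD71-, 20.003 and 13.5 CPM in culture CD71+, 4.47 and 4.16 CPM in tumour CD71-, and 7.21 and 8.09 CPM in tumour CD71+. It was lower in the tumour in CD71- as well (-2.23 ± 0.33, adjusted p = 4.0e-05), while Rps27 was -0.56 ± 0.21 there (adjusted p = 0.029).

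Rpl10 differed in direction. Rpl10, which joins the large subunit late in its assembly and completes the peptidyl transferase centre, was at 61.8 and 108 CPM in culture CD71-, 173 and 108 CPM in culture CD71+, 150.1 and 141 CPM in tumour CD71- and 225 and 183 CPM in tumour CD71+. It was the member that passed as higher in tumour CD71-, with a log2 fold change of 0.78 ± 0.27 (adjusted p = 0.022), which turned to -0.13 with scaling to total counts and -1.08 with scaling on mature neutrophil genes. Among members with at least 5 CPM, Rps9 (0.40 ± 0.35) and Rpl13a (0.17 ± 0.28) came next in CD71- and did not pass. Above the same limit the highest estimates in CD71+, for Rpl10 (0.54 ± 0.26), Rps9 (0.41 ± 0.35) and Rpl3 (0.28 ± 0.23), did not pass either. Rpl24, below that limit with a mean of 1.99 CPM and chosen after its values were seen, had higher estimates, 1.48 ± 0.64 in CD71- and 1.29 ± 0.54 in CD71+, with an adjusted p of 0.053 in each.

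The remaining paralogue pairs were unequal in level. Rpl3 and Rpl3l, the latter known from heart and skeletal muscle, had mean levels over the 8 libraries of 40.5 and 0.354 CPM per kb of exon. Rpl36a and Rpl36al stood at 17.9 and 0.343, Rpl39 and Rpl39l at 21.6 and 0.0431, and Rpl7 and the nucleolar Rpl7l1 at 50.05 and 8.67 CPM per kb. Rpl36a rose 3.58-fold and Rpl39 2.35-fold in tumour CD71+ over CD71- (adjusted p = 0.00029 and 0.0042), and Rpl7 rose 2.35-fold (adjusted p = 0.00058), with no overlap in these 3 genes.

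Levels per length varied among the members. The mean over the libraries had a median of 40.5 CPM per kb over the 74 members with at least 5 CPM, and 46 of these were within 2-fold and 71 within 4-fold of the median. Rplp1 (170.0 CPM per kb), Rps15 (161) and Rplp0 (155) were highest. The order of the 74 levels was similar between groups, with a Spearman correlation of 0.934 between culture CD71+ and tumour CD71+ and 0.842 between culture CD71- and tumour CD71-, across genes that share their lengths. It depended on the gene model: levels by exon union and by longest transcript had a Spearman correlation of 0.876, and 5 of the 10 highest genes were shared.

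Some members had levels far below the rest. Exon bases shared with another gene on the same strand made up 20% or more of the exon union in 4 members, and these were among the 6 lowest with a count: Rpl13a (35.4% shared, 4.18 CPM per kb), Rpl24 (47.0%, 1.93), Rps10 (20.6%, 1.03) and Rpl36al (24.5%, 0.343). Pseudogene rows whose transcripts match at least 80% of the member's coding sequence at 90% identity held 49.5% of the combined counts for Rpl24, 42.7% for Rps10 and 25.045% for Rpl13a. The levels of these genes are uncertain, and the part of shared exons or copies in them was not tested. Over all members, 917 such copies of 70 genes held 10.8% and 10.6% of member and copy counts in tumour CD71- and 2.17% to 4.10% in the other libraries. With copy counts added to their genes, the median tumour log2 fold change was 1.05 in place of 1.25.

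**Figure D5:**
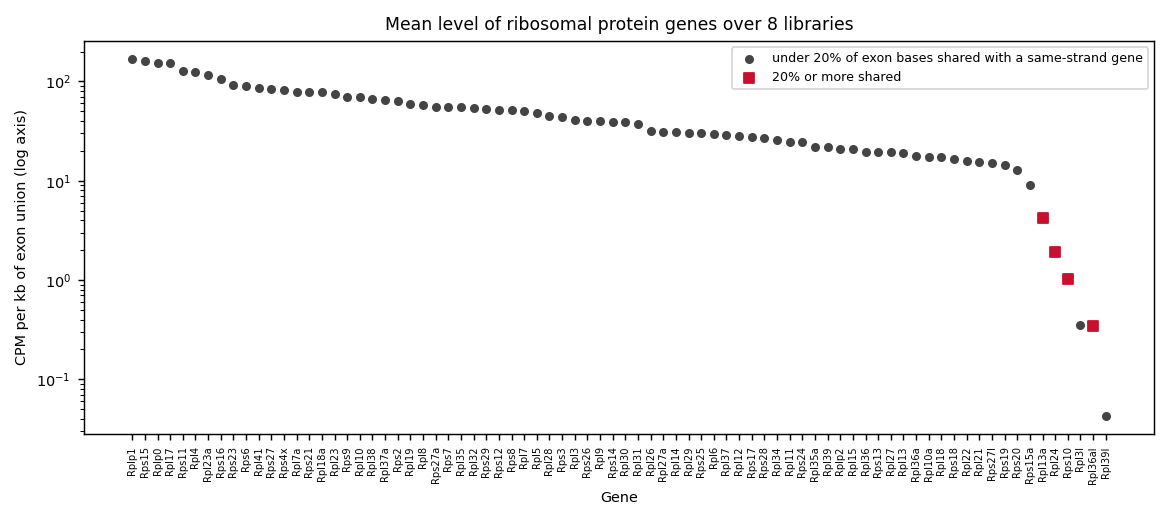
Mean CPM per kb of exon union over the 8 libraries, on a log axis, for ribosomal protein genes with any count (1 gene is not shown), ordered from high to low. Red squares mark the 4 genes that share at least 20% of their exon bases with a same-strand gene, all near the low end from 4.18 down to 0.343.

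Ribosomal proteins outside the naming rule gave 4 of 7 higher in tumour CD71+ than in tumour CD71-, paralogues included. Rpsa, the laminin receptor homologue of the small subunit, was at 65.3 and 49.9 CPM in tumour CD71- and 240.4 and 154 CPM in tumour CD71+ (log2 fold change 1.78, adjusted p = 0.014). Rack1, a scaffold on the small subunit, was at 44.3 and 43.1 CPM against 153 and 136 CPM (1.72, adjusted p = 0.00015). The genes outside the members whose log2 CPM profile over the 8 libraries was most like the mean member profile were Tuba1b (Pearson 0.990), Rpsa (0.986), Rack1 (0.985), Cox4i1 (0.983) and Ndufa8 (0.981), among 9695 candidates. Within the members, 54 of the 74 had a correlation above 0.9 with the mean of the others (median 0.948), and Rps9 (-0.03), Rpl10 (0.12) and Rps27 (0.19) were lowest. These values come from libraries that share their scaling and carry no p.

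Other genes of the translation machinery are given from lists written from general knowledge. Of 20 elongation factors and other terminal oligopyrimidine mRNAs, 16 rose and 0 fell in tumour CD71+, with a median log2 fold change of 1.03 against 0.13 over all genes. Npm1, a nucleolar chaperone of ribosome assembly, was at 18.6 and 19.0 CPM in tumour CD71- and 84.8 and 93.0 CPM in tumour CD71+, and Eif3m, an initiation factor subunit, at 6.28 and 5.54 CPM against 22.99 and 25.03 CPM, both with no overlap. In culture 3 of these 20 rose and 0 fell, against 7.88% higher and 8.36% lower among all tested genes. Of 21 initiation factors 6 rose and 2 fell in the tumour, a share of rises near the 26.2% of all tested genes. Eif3b and Eif3i rose by log2 fold changes of 1.64 and 1.31, and Eif5 and Eif1, which act in start codon choice, fell by 0.69 and 0.64. Of 77 tested mitochondrial ribosomal protein genes 36 rose and 3 fell in the tumour (median 1.03), and 2 rose and 1 fell in culture (median 0.24). Their culture shares lay below those of all tested genes.

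Genes that make ribosomes also moved in the tumour. Of 29 assembly factors 14 rose and 2 fell, led by Utp20 (2.65 and 2.22 CPM in CD71-, 15.6 and 15.3 CPM in CD71+, log2 fold change 2.66) and Dkc1, the pseudouridine synthase of ribosomal RNA (2.57). Sbds, which frees the large subunit for translation, fell by 0.59, and Rrp1 by 0.44. Of 14 genes for RNA polymerase I and its factors 6 rose and 0 fell, among them the polymerase subunit Polr1b (1.94) and the initiation factor Rrn3 (1.62). Of 7 chaperones of single ribosomal proteins 5 rose and 0 fell, among them Heatr3 (2.71), which brings Rpl5 into the nucleus, and Bccip (1.57). In culture the counts were 3 up and 2 down for assembly, 1 and 2 for RNA polymerase I, and 1 and 0 for the chaperones. Among all tested genes 7.88% were higher and 8.36% lower there, and the shares for assembly lay near these.

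The counts for regulators stand against 26.2% higher and 17.3% lower among all tested genes, and the shares that rose among the transcription factors, rescue genes and host genes that follow were near or below the former. Of 17 genes of mTORC1 and translational control 7 rose and 1 fell, with Deptor, an mTOR inhibitor, at 1.92, Mlst8 at 1.59 and Larp4b falling by 0.48. Larp1 rose 2.41-fold. Of 11 transcription factors of ribosomal protein genes 2 rose and 3 fell: Myc was at 6.004 and 2.08 CPM in tumour CD71- and 15.6 and 16.6 CPM in tumour CD71+ (log2 fold change 1.99, adjusted p = 0.0036), Zfp692 rose by 0.86, and Gabpb1, Taf1 and Max fell by 0.83, 0.80 and 0.71. Of 14 ribosome rescue and turnover genes 4 rose and 1 fell, with Usp10 (1.77) and Abce1 (1.62) rising and Ascc3 falling by 0.84. Of 12 host genes of small nucleolar RNAs 3 rose and 0 fell.

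Markers of other cells moved with the same fractions. The summed level of 20 macrophage and monocyte genes was 1274 and 1305 CPM in tumour CD71- and 5156 and 5700 CPM in tumour CD71+, with 16 of 19 tested genes higher and 0 lower, and 10 microglia genes rose from 219 and 261 CPM to 1180 and 1675 CPM, with 9 of 10 higher. In culture the macrophage genes were at 1448 and 1519 CPM in CD71- and 2765 and 2229.6 CPM in CD71+, with 13 of 19 higher. Of the 10 microglia genes 5 were higher in culture CD71+ and 0 were lower, with a median log2 fold change of 0.72. The microglia genes Siglech and Sall1 were at 0 in all 4 culture libraries. The 25 mature neutrophil genes were at 37958 and 40416 CPM in tumour CD71- and 19737 and 19275 CPM in tumour CD71+, with 17 lower and 1 higher, and 11 of them were lower in culture CD71+. Of 25 cell cycle genes 15 were higher in tumour CD71+ than in tumour CD71-, and 7 were higher in culture CD71+ than in culture CD71-. Of 14 neural and glioma genes, 10 of them tested, 6 were higher in tumour CD71+ than in tumour CD71-. All 4 tested lymphocyte genes were higher in tumour CD71+, and of 12 early neutrophil genes 1 was higher there and 1 lower. Of 9 erythroid genes 4 were at 0 in every library, and their summed level did not exceed 3.56 CPM. The part of these cells and of cell cycle in the ribosomal protein values was not tested.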

How the data were processed

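The deposited table holds raw read counts per gene, whole numbers that the authors had not normalized. Per the labels' protocols, extraction used the Zymo Quick-RNA Microprep kit, and Illumina's stranded total RNA chemistry with Ribo-Zero Plus gave the libraries. Per the submitters' processing notes, FastQC, cutadapt, STAR, featureCounts and DESeq2 were used with build mm10; versions and the strand setting are not given in the sources used here, so reads on overlapping or antisense exons and on near-identical copies may be miscounted.

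Genes were kept with filterByExpr (15975 of 55450) and scaled by TMM, and edgeR 4.0.16 (R 4.3.3) fitted 4 group means robustly over the 8 libraries, leaving 4 residual degrees of freedom; the common coefficient of biological variation was 0.19. Its quasi-likelihood test with Benjamini-Hochberg adjustment over all tested genes gave 5 comparisons, called at an adjusted p under 0.05. The script was tested on simulated data. CPM per kb used the exon union of GENCODE M21, in which all 55450 gene IDs were found. Alternatives were DESeq2 1.42.0 (size factors and Wald test), total counts, scaling on mature neutrophil genes, filters (none, or at least 50 counts in 2 libraries), the 4 libraries compared alone, a replicate block, each library left out, pseudogene counts added by name or, chosen after seeing the data, by sequence, transcript length, and totals without mitochondrial genes.

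The members, lists and tests were chosen with earlier results of these data known. Named members are the 3 highest and 3 lowest fold changes of each comparison (mean of at least 5 CPM), a set with known roles or paralogues, the 3 highest and lowest levels and the 3 widest ranges, of which 1 is not reported here; lists give at most 2 rises and 2 falls, except Larp1, Max, Mdm2 and Cdkn1a, named after their values were seen.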

Additional observations from a re-analysis of the deposited data

Results flagged for a closer look

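In 8 ribosomal protein genes named above, the CD71 effect in the tumour differed from that in culture by the test of the difference itself (edgeR's quasi-likelihood test, adjusted over all genes). The difference, tumour minus culture on the log2 scale, was 1.86 for Rpl32 (adjusted p = 0.0038), 1.66 for Rpl26 (0.013), 1.65 for Rpl22 (0.0021), 1.57 for Rps4x (0.0038), 1.495 for Rps18 (0.032), 1.33 for Rpl10a (0.017), 1.23 for Rpl11 (0.028) and 0.91 for Rpl5 (0.045). Over the alternatives the values ran from 1.32 to 1.89 for Rpl22, from 1.30 to 1.82 for Rps4x and from 1.44 to 2.16 for Rpl32, and these 3 genes passed in each. Rpl5, from 0.65 to 1.17, and Rpl11, from 0.76 to 1.56, missed the threshold without culture CD71- replicate 2 and without either tumour CD71- library, among others. Rpl10a, from 0.96 to 1.61, and Rpl26, from 1.29 to 2.09, missed it without culture CD71+ replicate 2 and without either tumour CD71- library, and Rps18, from 0.86 to 1.91, missed it in these and 6 further settings. All 8 genes were higher in tumour CD71+ than in tumour CD71- in each library.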

How the results depend on the processing

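The median tumour log2 fold change of the members stayed positive and the median tumour over culture changes stayed negative in each setting run. Scaling moved the median of all tested genes in the tumour from 0.13 to -0.07 (DESeq2 size factors), 0.69 (total counts) and 1.13 (mature neutrophil genes), and the members' median to 1.03, 1.81 and 2.26; the DESeq2 Wald test gave 1.06 and sequence-matched copies 1.05. Members higher in culture CD71+, 11 in the text, numbered 6 with DESeq2 size factors, 39 with total counts, 61 on mature neutrophil genes (median 1.46), 33 without a filter and 3 with the 4 culture libraries alone. The difference passed for 10 with DESeq2 size factors and 26 with total counts. In CD71-, members higher in the tumour numbered 2 with DESeq2 size factors or the 4 libraries alone and 0 with total counts (median -2.15) or mature neutrophil genes (median -3.10). In CD71+, lower members numbered 17 with DESeq2 size factors (1 higher), 62 with total counts (median -1.20), 71 on mature neutrophil genes (median -2.32), 44 without a filter, 15 with the stricter filter and 41 with the 4 libraries alone (2 higher). Scaling moves all genes, not the members alone. The shares of all genes called under these settings are not given here, so these counts are not set against them.

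Directions reversed as follows. Rps27 in the tumour became 0.53 with total counts and 0.98 on mature neutrophil genes, and Rpl22 in culture 0.95 on the latter. In CD71-, tumour over culture with total counts was -0.13 for Rpl10, -0.75 for Rpl13a, -0.89 for Rpl3 and -0.90 for Rps13, and on mature neutrophil genes -1.08 for Rpl10, -1.68 for Rpl13a, -1.83 for Rpl3, -1.85 for Rps13 and -1.47 for Rps9. In CD71+, Rpl10a became -0.52 with total counts and -1.65 on mature neutrophil genes, where Rpl10 was -1.25, Rpl3 -1.52 and Rps9 -1.41. A change of scaling moves the estimates of all genes in a comparison by about the same amount. The mature neutrophil genes used for scaling were at 37958 and 40416 CPM in tumour CD71- and 11180 and 10458 CPM in culture CD71-. They were at 19737 and 19275 CPM in tumour CD71+ and 6215 and 4953 CPM in culture CD71+. Which scaling is nearer the true levels was not tested.

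With each library left out in turn, members higher in the tumour ranged from 32 to 66 (median 1.06 to 1.30), in culture from 0 to 56 (lower 0 to 1), for the difference from 3 to 52 (negative 0 to 1), in CD71- from 1 to 5 higher and 36 to 66 lower, and in CD71+ from 0 to 2 higher and 7 to 43 lower. In culture Rpl36 ranged from -0.97 to 2.54 and Rps9 from -0.52 to 0.72. With a replicate block, 50 members were higher in tumour CD71+, 8 in culture CD71+ and 11 for the difference. In tumour over culture, 51 and 20 were lower in CD71- and CD71+. Replicate numbers are not tied to animals in the labels, and same-numbered deviations correlated between groups at -0.18 to 0.123 over all tested genes and at -0.867 (culture CD71- with tumour CD71+) to 0.601 (culture CD71- with culture CD71+) over 74 members. With 2 libraries per group, differences within this spread were not detectable. The shares of all genes called with a library left out or with a replicate block are not given. The counts of members in those fits, here and above, are therefore not set against them. Without mitochondrial genes in the total, the members' share in tumour CD71+ was 0.635%.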
